A study of Mus musculus with 12 samples.

Results

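The circadian clock genes were examined in whole-lung RNA of 12 mice with lipopolysaccharide (LPS)-induced acute lung injury (ALI). The genes were Arntl, Npas2, Nr1d1, Nr1d2, Dbp, Tef, Ciart, Per1, Per2 and Per3. They were found by their symbols in the gene name column of the deposited table, which listed each once, so that they were 10 of 55414 genes. All 10 passed the filter on low values, 1 TPM or more in 6 libraries or more, and were among the 15148 genes tested. TPM divides the reads of a gene by its length and scales each library to a common total of transcripts, so levels of different genes can be compared, while the depth of sequencing cannot be read from it.

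Of the 12 lungs, 6 came from IL-10 B-KO mice, obtained by mating Il10 flox/flox mice with mb1-cre mice, and 6 from IL-10 B-WT mice. The mb1 promoter drives Cre in the B cell lineage, so that the floxed Il10 gene is removed there and stays in the other cells of the lung. Both groups had a C57BL/6J background, both received LPS, which is part of the wall of Gram-negative bacteria and injures the lung when instilled, and both were taken at day 4. The age and sex of each mouse, the Cre and flox alleles of the IL-10 B-WT mice, and the time of day at which lungs were taken are not given in the sources used here. The study asked what B cell-derived IL-10 does during recovery from ALI. Each library was 1 sample of its group in the labels, so that p-values measure the spread between these lungs.

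The clock is a feedback loop of transcription that runs in most cells with a period of about a day. ARNTL (also called BMAL1) pairs with CLOCK or its relative NPAS2, binds E-box sequences and switches on Per, Cry, Nr1d1, Nr1d2, Dbp, Tef and Ciart. The PER and CRY proteins then repress ARNTL, and the nuclear receptors encoded by Nr1d1 and Nr1d2 (REV-ERBα and REV-ERBβ) repress Arntl and Npas2 through ROR elements. DBP and TEF carry the rhythm to other genes through D-box sequences, and CIART (CHRONO) is a further repressor of ARNTL. In mouse tissues Arntl and Npas2 therefore peak when Nr1d1 and Dbp are at their trough. Lung clocks run in several cell types, the club cells of the airway among them, and are known to gate the recruitment of neutrophils.

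The promoters below are shown because they hold, in these genes, the sequences through which the loop is known to be wired. The windows run from 250 bases before to 50 bases after an annotated start, were taken from RefSeq (GRCm38.p6), and are written 5′ to 3′ on the strand of the gene with the motifs in capitals. Promoters were found for 9 of the 10 genes, 12 in all. Per2 had no entry.
Ciart, chr3:95882179-95882478, minus strand, with E-boxes in capitals: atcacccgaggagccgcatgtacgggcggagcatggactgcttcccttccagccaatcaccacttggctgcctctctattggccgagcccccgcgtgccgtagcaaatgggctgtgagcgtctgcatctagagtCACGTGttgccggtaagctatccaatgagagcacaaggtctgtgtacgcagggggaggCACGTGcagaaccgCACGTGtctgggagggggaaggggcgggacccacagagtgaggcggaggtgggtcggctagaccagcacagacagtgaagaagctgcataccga
Per3, chr4:151044616-151044915, minus strand, with D-boxes in capitals: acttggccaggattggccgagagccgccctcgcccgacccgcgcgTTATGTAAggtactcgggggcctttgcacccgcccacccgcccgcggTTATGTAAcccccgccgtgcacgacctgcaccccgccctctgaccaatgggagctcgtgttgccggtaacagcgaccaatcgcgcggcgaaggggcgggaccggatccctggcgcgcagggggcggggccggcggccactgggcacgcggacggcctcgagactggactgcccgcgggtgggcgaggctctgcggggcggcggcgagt
Tef, chr15:81802423-81802722, plus strand, with an E-box in capitals: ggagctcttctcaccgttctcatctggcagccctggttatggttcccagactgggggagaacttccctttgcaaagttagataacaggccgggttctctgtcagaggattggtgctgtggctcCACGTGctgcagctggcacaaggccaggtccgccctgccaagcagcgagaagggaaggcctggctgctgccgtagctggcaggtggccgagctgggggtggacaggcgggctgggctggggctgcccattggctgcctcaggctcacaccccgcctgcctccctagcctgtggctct
Nr1d1, chr11:98775328-98775627, minus strand, with an E′-box (read on the other strand) in capitals: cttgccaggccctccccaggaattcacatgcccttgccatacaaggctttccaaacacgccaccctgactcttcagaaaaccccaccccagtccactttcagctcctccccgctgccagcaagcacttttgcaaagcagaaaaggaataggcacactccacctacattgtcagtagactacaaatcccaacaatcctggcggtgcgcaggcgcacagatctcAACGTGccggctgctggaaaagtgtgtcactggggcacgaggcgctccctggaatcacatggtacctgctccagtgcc
Arntl, chr7:113207261-113207560, plus strand, with a ROR element core in capitals: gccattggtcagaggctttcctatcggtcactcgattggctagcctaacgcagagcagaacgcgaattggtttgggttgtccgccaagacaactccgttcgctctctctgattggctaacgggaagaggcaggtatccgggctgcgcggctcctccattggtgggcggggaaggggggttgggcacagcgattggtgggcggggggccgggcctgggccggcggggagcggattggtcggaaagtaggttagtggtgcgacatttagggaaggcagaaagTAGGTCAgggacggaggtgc

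The motifs were searched on both strands, as CACGTG for the E-box, CACGTT for the E′-box, TTATGTAA or TTACGTAA for the D-box, TAGGTCA or TGGGTCA for the core of a ROR element, and TGACGTCA for the cAMP response element. The Ciart promoter held 3 E-boxes, whose first bases lay at -116, -58 and -44 from the start. At least 3 E-boxes were found in 29 of 32851 mouse promoters of the same length (0.0883%), against 7.15% with at least 1. The Per3 promoter held 2 D-boxes, at -205 and -158, a number reached by 8 promoters (0.0244%), while 1.06% held at least 1. Tef had an E-box in each of its 2 promoters, at -127 and -138, and the upstream of the 2 Per1 promoters (chr11:69098699-69098998, plus strand) had 1 at -166. The E′-box of Nr1d1 lay at -28, and 4.68% of promoters held those letters. The ROR core of Arntl lay 31 bases after the start of the second of 2 promoters, and 6.45% of promoters held it. The letters of these motifs were not in the windows of Npas2, Nr1d2 and Dbp. The cAMP response element was in 0 of the 12 windows and in 1.79% of all promoters. A match describes letters only, and binding was not measured.

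**Figure D1:**
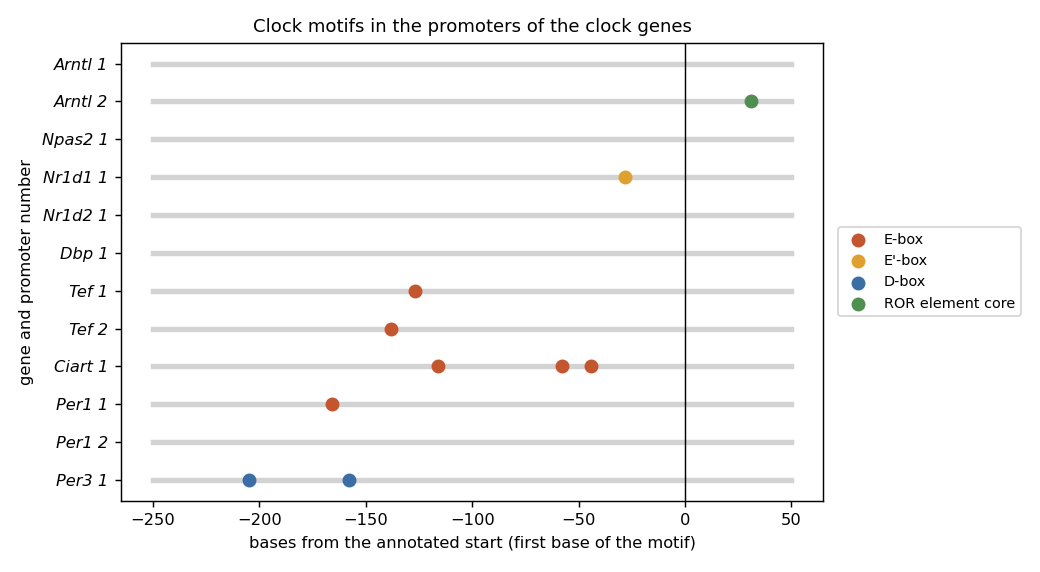
Positions of the motifs in the 12 promoters of 9 clock genes, with the distance in bases from the annotated start on the x axis, genes and promoter numbers on the y axis, and 1 colored point per motif (first base). The 3 E-boxes of Ciart lay between -116 and -44 and the 2 D-boxes of Per3 at -205 and -158.

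The libraries were not alike. Between 21380 and 24138 genes were above 0 TPM, and mitochondrial genes took between 4.63% and 30.5% of all TPM, with the highest share in IL-10 B-WT replicate 5. IL-10 B-WT replicate 1 had the lowest mean Spearman's rho to the other libraries of its group (0.877, across genes, which are not independent replicates), and immunoglobulin genes took 15.1% of the TPM of IL-10 B-WT replicate 2. Epithelial genes of the lung, such as those of surfactant, marked all libraries as lung, with summed levels of 29706 to 102433 TPM in IL-10 B-WT and 22349 to 111723 TPM in the IL-10 B-KO lungs. All differences between genotypes below are log2 fold changes on log2(TPM + 1), IL-10 B-KO minus IL-10 B-WT, a scale that understates the change of genes with low TPM. They were tested with limma over 15148 genes, and their median over these genes was 0.10.

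None of the 10 clock genes met the threshold, a log2 fold change of 1 or more in either direction with an adjusted p no higher than 0.05, which 75 of 15148 genes (0.495%) met in limma. With an unadjusted p no higher than 0.05, 1 of 10 (Nr1d1) had its lower level in IL-10 B-KO lungs, against 5.71% of all genes, and 0 of 10 were higher, against 6.83%. The exact permutation test (two-sided, difference of mean log2(TPM + 1)), whose smallest possible p is 0.00216 for 6 lungs against 6, also gave 1 gene at or under 0.05. The fold change was negative for 8 of 10 clock genes, Arntl among them at -0.04, and for 36.8% of all genes tested. The median log2 fold change of the 10 was -0.37. Most of these genes varied together from lung to lung, so that the 8 are not separate observations. The genotypes overlapped for each of the 10, while 1.02% of all genes did not overlap. In bulk RNA, fewer cells that express a gene and less of its RNA per cell cannot be told apart.

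**Figure D2:**
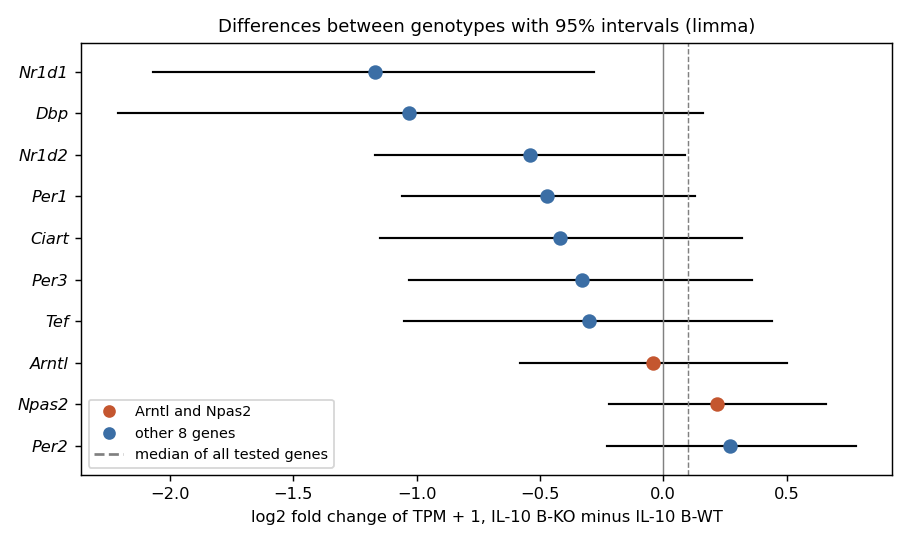
Log2 fold change of TPM + 1 (x axis, IL-10 B-KO minus IL-10 B-WT) of the 10 clock genes with its 95% interval from limma, with Arntl and Npas2 in orange, the other 8 genes in blue, and the median of all tested genes (0.10) as a dashed line. The interval of Nr1d1 (-2.07 to -0.28) lay below 0, and those of the other 9 genes included it.

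Among the activators, Arntl did not separate the genotypes. Its level was between 3.77 and 12.3 TPM in the IL-10 B-WT lungs (median 5.12, mean 6.27 ± 3.10, SD, n = 6) and between 3.87 and 7.95 TPM in the IL-10 B-KO lungs (median 5.38, mean 5.82 ± 1.71, SD, n = 6). The highest of the 12 lungs was IL-10 B-WT replicate 2, and the IL-10 B-KO range lay within that of IL-10 B-WT. The log2 fold change of Arntl was -0.04 (SE 0.25, 95% interval -0.58 to 0.50, limma adjusted p = 0.950), and it turned to 0.15 without that lung, to 0.01 without IL-10 B-KO replicate 1 and to 0.05 without IL-10 B-KO replicate 2. Npas2, the partner of ARNTL that can stand in for CLOCK, was near the filter at 0.560 to 2.70 TPM (median 0.835, mean 1.11 ± 0.804, SD, n = 6) and at 1.03 to 1.77 TPM (median 1.27, mean 1.35 ± 0.264, SD, n = 6). Its highest level was again that of IL-10 B-WT replicate 2. No IL-10 B-KO lung lay below the IL-10 B-WT median of Npas2, the log2 fold change was 0.22 (SE 0.20, 95% interval -0.22 to 0.66), and the limma adjusted p was 0.644. Without IL-10 B-WT replicate 2 it was 0.40 (limma unadjusted p = 0.0212).

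Nr1d1, which encodes the repressor REV-ERBα, had the lowest p of the clock genes. The IL-10 B-WT lungs had 21.8 TPM in replicate 1 and 61.6 to 90.5 TPM in the other 5, with a median of 75.2 and a mean of 68.3 ± 25.3 TPM (SD, n = 6). The IL-10 B-KO lungs had 44.4 TPM in replicate 1, 72.3 TPM in replicate 2 and 15.2 to 21.9 TPM in the other 4, with a median of 21.9 and a mean of 32.0 ± 22.4 TPM (SD, n = 6). Each genotype thus held lungs at both ends, since IL-10 B-WT replicate 1 was as low as 4 of the IL-10 B-KO lungs. All 6 IL-10 B-KO lungs were below the IL-10 B-WT median, and 3 had less Nr1d1 than any of the IL-10 B-WT group. The log2 fold change was -1.17 (SE 0.41, 95% interval -2.07 to -0.28, limma unadjusted p = 0.0137, adjusted p = 0.311, exact permutation p = 0.0325). With each of the 12 lungs left out in turn it stayed between -1.47 and -1.02, with unadjusted p up to 0.0336. Nr1d1 met the threshold without IL-10 B-WT replicate 1 (-1.47, limma adjusted p = 0.0396). It also did with array quality weights, which weigh down libraries that vary most (-1.44, limma adjusted p = 0.0337). In these fits 604 and 318 of the 15148 genes met it, against 75 with all lungs weighed alike. The 3′ end of Nr1d1 lies over that of Thra on the other strand of chromosome 11, where they share 263 of the 3077 exon bases of Nr1d1. The strandedness of the libraries is not given in the sources used here, so that reads from those bases cannot be told apart, and Thra was at 34.4 to 85.2 TPM.

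Nr1d2, which encodes the related REV-ERBβ, was at 12.0 to 28.8 TPM in the IL-10 B-WT lungs (median 20.2, mean 20.2 ± 5.69, SD, n = 6) and at 6.25 to 27.3 TPM in the IL-10 B-KO lungs (median 12.3, mean 14.4 ± 7.28, SD, n = 6). Again the lowest of its group was IL-10 B-WT replicate 1, while replicate 2 was the highest of the IL-10 B-KO group. The log2 fold change was -0.54 (SE 0.29, 95% interval -1.17 to 0.09, limma adjusted p = 0.460), and it was -0.34 and -0.74 without replicates 5 and 2 of IL-10 B-KO (limma unadjusted p = 0.215 and 0.0140) and -0.67 without IL-10 B-WT replicate 1 (unadjusted p = 0.0389). Ciart, whose product represses ARNTL, was at 9.26 to 35.2 TPM (median 18.7, mean 20.6 ± 9.03, SD, n = 6) and at 6.50 to 25.0 TPM (median 14.7, mean 15.4 ± 7.12, SD, n = 6), with the same lungs lowest in IL-10 B-WT and highest in IL-10 B-KO. Its log2 fold change was -0.42 (SE 0.34, 95% interval -1.15 to 0.32, limma adjusted p = 0.593), and it was -0.22 without IL-10 B-KO replicate 5 and -0.25 when replicate 6 of IL-10 B-WT was left out.

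Dbp, a D-box activator and a gene of very large daily amplitude in mouse tissues, varied the most of the 10. Its level was between 29.1 and 96.5 TPM in the IL-10 B-WT lungs (median 64.1, mean 61.8 ± 26.3, SD, n = 6). The IL-10 B-KO lungs fell apart into 82.4 and 78.7 TPM in replicates 1 and 2 and 5.53 to 27.5 TPM in the other 4 (median 24.0, mean 38.9 ± 33.1, SD, n = 6). Those 4 lungs had less Dbp than any of the IL-10 B-WT group, whereas the other 2 were above the IL-10 B-WT median. Highest over lowest, the 12 lungs differed 17.5-fold. The log2 fold change was -1.03 (SE 0.55, 95% interval -2.21 to 0.16, limma adjusted p = 0.454, exact permutation p = 0.128). It moved to -0.61 without IL-10 B-KO replicate 5, and to -1.34 and -1.33 without replicates 1 and 2 of that group (limma unadjusted p = 0.0246 and 0.0259). Dbp shares 539 of its 2993 exon bases with Sphk2 on the other strand of chromosome 7, which was at 7.91 to 25.4 TPM, so that reads there have the same limit as for Nr1d1. Tef, the other D-box activator, was at 28.6 to 77.5 TPM (median 50.5, mean 52.8 ± 21.3, SD, n = 6) and at 18.0 to 83.0 TPM (median 36.2, mean 44.1 ± 22.7, SD, n = 6). The lowest and the highest of the 12 lungs for Tef were both IL-10 B-KO, replicates 5 and 2, and the log2 fold change was -0.30 (SE 0.35, 95% interval -1.05 to 0.44, limma adjusted p = 0.706). That of Tef was -0.09 and -0.51 without replicates 5 and 2 of IL-10 B-KO, and -0.70 with array quality weights (limma unadjusted p = 0.0279).

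The Per genes encode the repressors that act with CRY, and none of them met the threshold. Per1, which glucocorticoids are known to induce directly, was at 20.9 to 64.6 TPM in the IL-10 B-WT lungs (median 44.6, mean 42.9 ± 14.5, SD, n = 6) and at 17.7 to 42.0 TPM in the IL-10 B-KO lungs (median 34.5, mean 30.5 ± 9.67, SD, n = 6). All 6 IL-10 B-KO lungs had less Per1 than the IL-10 B-WT median, and the log2 fold change was -0.47 (SE 0.28, 95% interval -1.06 to 0.13, limma adjusted p = 0.479). Per3 was at 7.01 to 18.1 TPM (median 11.0, mean 12.1 ± 4.22, SD, n = 6) and at 3.46 to 17.0 TPM (median 8.47, mean 10.0 ± 5.05, SD, n = 6), with a log2 fold change of -0.33 (SE 0.32, 95% interval -1.03 to 0.36, limma adjusted p = 0.656). Per2 had a positive log2 fold change, at 8.03 to 22.5 TPM (median 11.8, mean 12.8 ± 5.32, SD, n = 6) and at 11.8 to 21.4 TPM (median 14.2, mean 15.1 ± 3.67, SD, n = 6), with a log2 fold change of 0.27 (SE 0.24, 95% interval -0.23 to 0.78, limma adjusted p = 0.613). No IL-10 B-KO lung was below the IL-10 B-WT median of Per2. Whether Per1 and Per2 differed from each other in their response was not tested, and from lung to lung the 3 genes varied in the same direction (r with genotype means subtracted 0.65 for Per1 with Per2, 0.71 for Per2 with Per3 and 0.38 for Per1 with Per3). Per1 was at -0.65 without IL-10 B-WT replicate 5 (limma unadjusted p = 0.0183), Per3 at -0.10 without IL-10 B-KO replicate 5, and Per2 at 0.44 without IL-10 B-WT replicate 6. With array quality weights Per1 was at -0.88 (limma unadjusted p = 0.00221), Per3 at -0.59 and Per2 at 0.02.

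**Figure D3:**
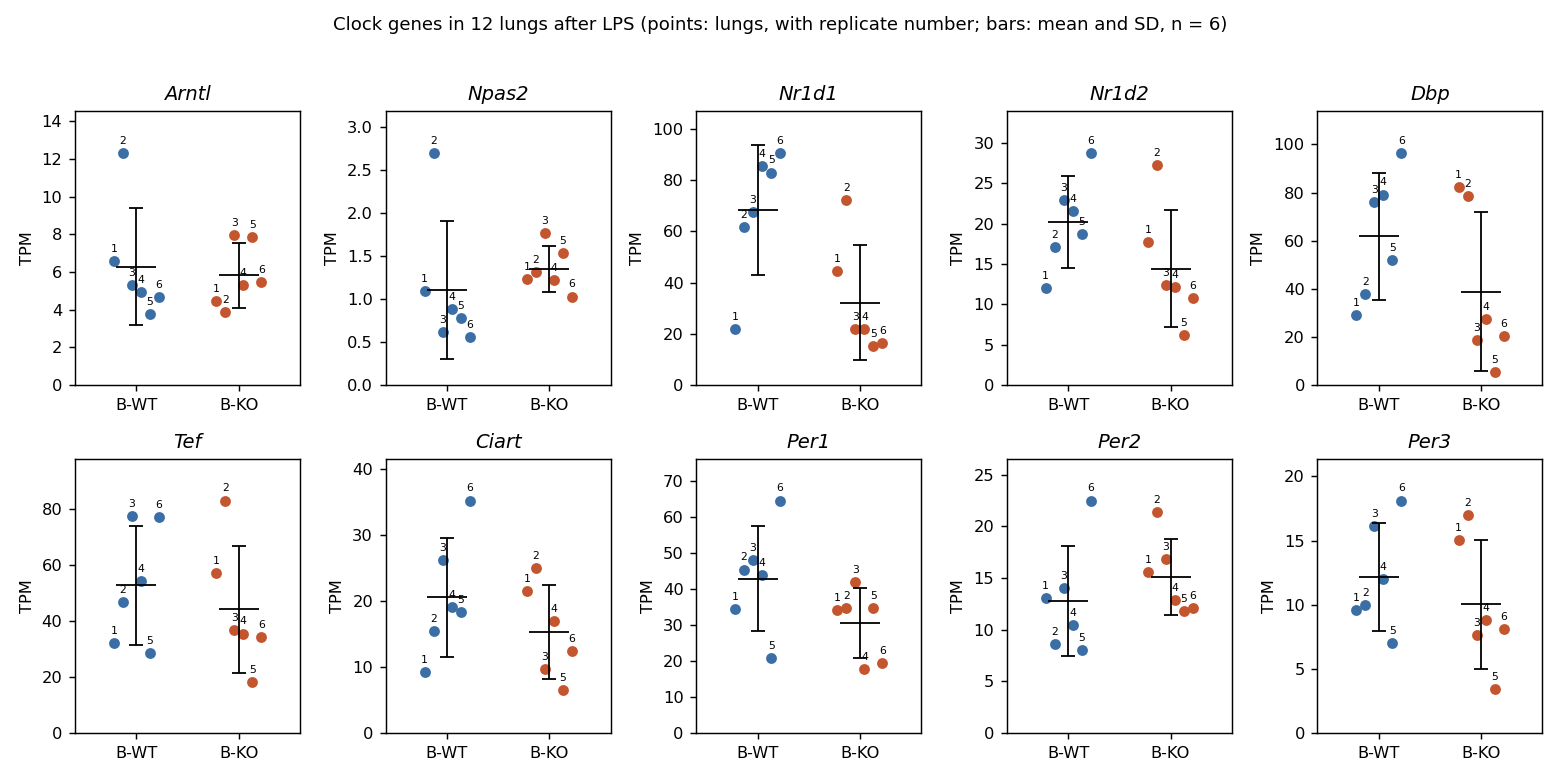
TPM of the 10 clock genes (y axis of each panel) in the 6 IL-10 B-WT lungs (blue) and the 6 IL-10 B-KO lungs (orange), 1 point per lung with its replicate number, with the mean and SD as black bars. The groups overlap in each panel, with IL-10 B-WT replicate 1 at 21.8 TPM of Nr1d1 among the IL-10 B-KO lungs and replicates 1 and 2 of IL-10 B-KO, at 82.4 and 78.7 TPM of Dbp, among the IL-10 B-WT lungs.

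In order of level, the IL-10 B-WT means ran from Nr1d1 (68.3 TPM) through Dbp, Tef, Per1, Ciart, Nr1d2, Per2 and Per3 to Arntl (6.27 TPM) and Npas2 (1.11 TPM). Neighbors in this order differed by more than the larger of their SDs only between Per1 and Ciart, Nr1d2 and Per2, Per3 and Arntl, and Arntl and Npas2. In IL-10 B-KO lungs the order was Tef (44.1 TPM), Dbp, Nr1d1, Per1, Ciart, Per2, Nr1d2, Per3, Arntl and Npas2, and only the gaps between Per1 and Ciart and between Arntl and Npas2 were that large. The spread between lungs of 1 genotype was wide for most clock genes. The within-group SD of log2(TPM + 1) was 1.08 for Dbp, which 95.5% of all tested genes stayed below, and 0.81 for Nr1d1 (89.5%), 0.67 for Tef (83.6%), 0.65 for Ciart (82.9%) and 0.61 for Per3 (80.0%), against a median of 0.39 over all genes tested. Arntl (0.45), Per2 (0.42) and Npas2 (0.34) were closer to that median.

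To compare the 2 sides of the loop in each lung, the mean z score of Arntl and Npas2 minus the mean z score of the other 8 genes was computed on log2(TPM + 1) over the 12 lungs. A phase cannot be read from this value, since the time of day at which lungs were taken is not given. Phase, amplitude and cell make-up cannot be told apart in it. A high value can come from more of Arntl and Npas2, from less of the other 8 genes, or from both. This difference was 0.62, 2.27, -1.54, -0.95, -0.67 and -2.35 for replicates 1 to 6 of IL-10 B-WT, and -0.75, -1.40, 1.39, 0.50, 2.29 and 0.58 for replicates 1 to 6 of IL-10 B-KO. Replicates 1 and 2 of IL-10 B-WT and replicates 3 to 6 of IL-10 B-KO were above 0, and the other 6 lungs below it, so that each genotype held lungs of either kind. The group means were -0.44 ± 1.65 and 0.44 ± 1.35 (SD, n = 6), a gap of 0.87 that was smaller than either SD. In single genes, the log2 ratio of Arntl to Dbp was between -4.36 and -1.62 in IL-10 B-WT lungs (median -3.82) and between -4.35 and 0.50 in IL-10 B-KO lungs (median -2.14). IL-10 B-KO replicate 5 was the only lung with more Arntl than Dbp per length. The log2 ratio of Arntl to Nr1d1 was between -4.46 and -1.73 (median -3.89) and between -4.22 and -0.96 (median -1.81).

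Over the 12 lungs, those with more Arntl than the mean of their genotype tended to have less Dbp. After the genotype means were subtracted, Pearson's r of Arntl with Dbp over the 12 lungs was -0.65 (permutation within genotype, two-sided, p = 0.00870, adjusted over 9 relations p = 0.0391), and Spearman's rho was -0.79 (adjusted permutation p = 0.0247). With Npas2, r was 0.85 (adjusted permutation p = 0.0391) and rho 0.61 (adjusted permutation p = 0.0717). For the repressors, r was -0.63 with Ciart, -0.58 with Nr1d2 and -0.53 with Nr1d1, and their adjusted permutation p was 0.0911, 0.0911 and 0.165. By rank all 3 were at rho -0.75 with an adjusted permutation p of 0.0247. Per3 (r = -0.46), Tef (-0.38), Per2 (-0.33) and Per1 (0.26) had an adjusted permutation p between 0.186 and 0.431. Without the 2 lungs farthest from the median of Arntl, replicate 2 of IL-10 B-WT and replicate 3 of IL-10 B-KO, r was -0.83 with Dbp, -0.85 with Nr1d1, -0.84 with Nr1d2 and -0.78 with Ciart over 10 lungs, but 0.45 with Npas2. The relation with Npas2 rested on IL-10 B-WT replicate 2, without which r was 0.60 (permutation p = 0.0649), while r was 0.84 without IL-10 B-KO replicate 3 alone (permutation p = 0.0142).

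Of the 9 relations, the 2 with Dbp and Npas2 were past an adjusted p of 0.05 by Pearson's r, and this count moved with single lungs. Among the IL-10 B-WT lungs, it was 5 when replicate 1 was left out, 4 for replicate 2, 2 for replicate 3, 0 for replicate 4, 6 for replicate 5 and 0 for replicate 6. Among the IL-10 B-KO lungs, it was 1 when replicate 2 or 6 was left out, and 0 for each of the other 4. The r of Arntl with Dbp itself stayed between -0.79 and -0.59 with any lung left out, with unadjusted permutation p up to 0.0234. In the 6 IL-10 B-KO lungs alone, r was -0.95 with Ciart (exact permutation p = 0.00694, adjusted p = 0.0625), -0.88 with Dbp and Per3, -0.84 with Tef, -0.83 with Nr1d2 and -0.79 with Nr1d1. In the 6 IL-10 B-WT lungs r was -0.56 with Dbp, -0.42 with Ciart and Nr1d2, -0.36 with Nr1d1, -0.09 with Per3 and -0.03 with Tef. None of the adjusted p within 1 genotype reached 0.05, and the difference between genotypes in these relations was not tested. All values of a lung share 1 library and 1 total.

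The 8 genes outside the Arntl and Npas2 pair varied in the same direction across lungs. With genotype means subtracted, all 28 pairs among them had a positive r, from 0.18 to 0.97 with a median of 0.72. Leaving out Per1 and Per2, the 15 pairs of Nr1d1, Nr1d2, Dbp, Tef, Ciart and Per3 had r between 0.66 and 0.97, highest for Tef with Per3 (0.97) and 0.94 for Nr1d2 with Dbp. These are descriptions over 12 lungs whose points share a library, with no test.

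**Figure D4:**
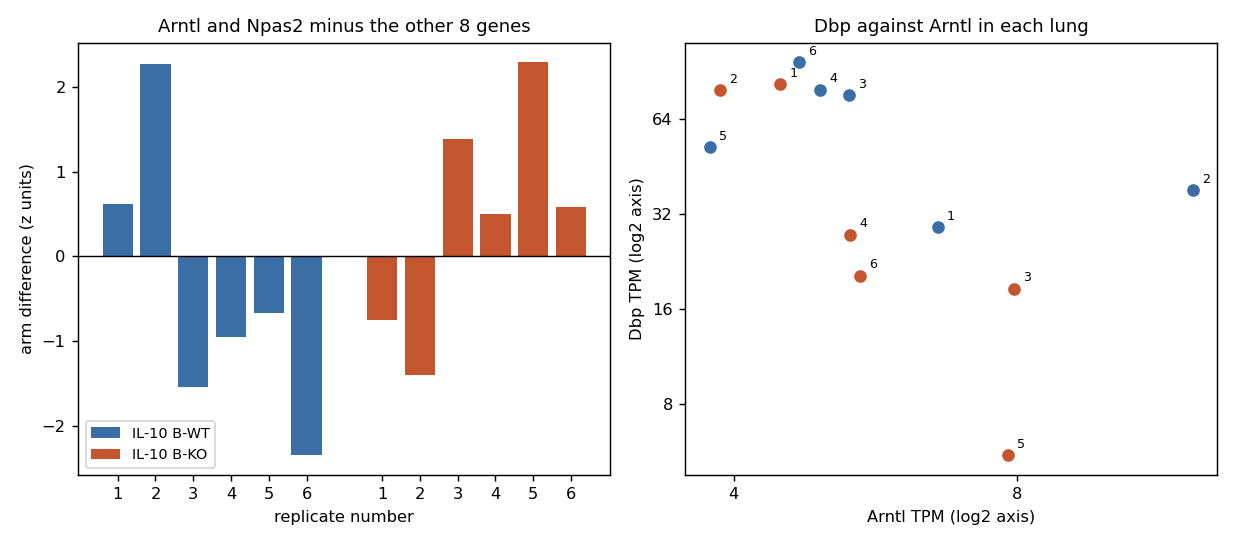
Left, mean z score of Arntl and Npas2 minus that of the other 8 clock genes (y axis, z units) as a bar for each of the 6 IL-10 B-WT (blue) and 6 IL-10 B-KO (orange) lungs by replicate number. Right, TPM of Dbp against TPM of Arntl on log2 axes with the same colors, 1 point per lung with its replicate number, running from IL-10 B-KO replicate 5 at 5.53 TPM of Dbp to IL-10 B-WT replicate 6 at 96.5 TPM.

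The other genes of the clock were taken from 3 lists, the rest of the core loop, the enzymes that turn over clock proteins, and output genes, 33 in all, of which 30 were tested. Of these 30, 19 had a positive and 11 a negative log2 fold change, with a median of 0.14. Beside the 75 calls over all genes, 0 of the 30 met the threshold in limma. At an unadjusted p of at most 0.05, 5 were higher (Nfil3, Bhlhe40, Wee1, Lonrf3 and Dtx4) and 1 was lower (Hlf), against 6.83% and 5.71% of all genes, and 4 were at or under 0.05 in the exact permutation test.

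In the core loop, 7 of 10 tested genes had a positive log2 fold change. Nfil3, the repressor that competes with DBP for D-boxes, was at 2.69 to 22.2 TPM in the IL-10 B-WT lungs (mean 7.72 ± 7.24, SD, n = 6) and at 3.74 to 36.3 TPM in the IL-10 B-KO lungs (mean 20.4 ± 12.8, SD, n = 6). The lungs with little Dbp had much Nfil3, with 33.1, 14.0, 36.3 and 23.4 TPM for replicates 3 to 6 of IL-10 B-KO, against 11.9 and 3.74 TPM in replicates 1 and 2. IL-10 B-WT replicate 1 had 22.2 TPM against at most 6.51 TPM in the rest of its group. Its log2 fold change was 1.29 (SE 0.52, limma adjusted p = 0.350). Bhlhe40, which encodes DEC1, a repressor of E-box transcription, was at 12.1 to 97.6 TPM and 30.7 to 104.5 TPM, with a log2 fold change of 1.11 (SE 0.43, limma adjusted p = 0.343). Without IL-10 B-WT replicate 1 it met the threshold (1.44, limma adjusted p = 0.0404), as did 604 of the 15148 genes in that fit. Hlf, the third D-box activator, had the opposite sign, at 1.65 to 5.32 TPM (mean 3.74 ± 1.24, SD, n = 6) and 0.840 to 3.05 TPM (mean 1.74 ± 0.836, SD, n = 6), with a log2 fold change of -0.80 (SE 0.25, limma adjusted p = 0.244, exact permutation p = 0.0152). Clock (0.14), Cry1 (0.51), Cry2 (-0.25), Rora (-0.18), Bhlhe41 (0.13) and Timeless (0.52) had unadjusted limma p of at least 0.0530. Rorb and Arntl2 did not pass the filter.

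Of the enzymes and ligases that set the stability of PER and CRY, such as Csnk1d, Csnk1e and Btrc, 7 of 8 were tested, and their log2 fold changes lay between -0.22 and 0.17, none of them with an unadjusted p of 0.05 or lower. Among the 13 output genes the largest differences at that level were those of Dtx4 (0.88, limma adjusted p = 0.330), Lonrf3 (0.68, adjusted p = 0.353) and the cell cycle kinase gene Wee1 (0.63, adjusted p = 0.298), all with positive sign, and 0 of 13 were lower. Nampt, whose product makes NAD precursors, was at 14.9 to 130.4 TPM and 24.7 to 99.7 TPM, with a log2 fold change of 0.60 (SE 0.47, limma adjusted p = 0.580).

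Inputs that are known to reset clocks were listed beside these values. Of 10 glucocorticoid-responsive genes, 6 had a positive and 4 a negative log2 fold change. With an unadjusted p no higher than 0.05, 5 were higher, among them Fkbp5 (log2 fold change 1.81, limma adjusted p = 0.154) and Mt2 (2.25, limma adjusted p = 0.279), and 0 were lower. Over all genes, 6.83% were higher and 5.71% lower at that level. Negative were Dusp1 (-0.49), Errfi1 (-0.08), and Tsc22d3 (-0.34) and Klf9 (-0.32), the last 2 of which glucocorticoids and the clock both regulate. Of 8 temperature-responsive genes, 0 were past that level in either direction. Of 6 genes of feeding and fasting 2 were higher, and of 7 immediate early genes 1 was higher and 1 lower. None of these genes met the adjusted threshold in limma.

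Markers of some other cell types differed between lungs together with the clock genes. All 7 neutrophil markers had an unadjusted p no higher than 0.05 and a positive log2 fold change, and 0 met the adjusted threshold, with a median log2 fold change of 1.57 and sums of 285.2 to 2514.4 TPM in IL-10 B-WT and 1048.1 to 7540.3 TPM in the IL-10 B-KO lungs. The sums were 2514.4 TPM in IL-10 B-WT replicate 1 and 2012.2 to 7540.3 TPM for replicates 3 to 6 of IL-10 B-KO, the 5 lungs with 15.2 to 21.9 TPM of Nr1d1. In the 7 lungs with 44.4 TPM of Nr1d1 or more the sums were 285.2 to 1278.9 TPM. This split by Nr1d1, used here and below, was made after the values were seen and is uneven by genotype. Sums compared across it therefore mix the difference between genotypes with that between levels of Nr1d1. Macrophage and monocyte markers had a positive log2 fold change for 8 of 8 genes (4 with an unadjusted p of 0.05 or lower), with sums of 104.6 to 1696.2 TPM and 296.3 to 1919.8 TPM. No marker of either list was at 0 in any lung. The part of these cells in the levels of the clock genes was not tested.

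The B cell markers had an unadjusted p no higher than 0.05 and a negative log2 fold change for 6 of 6 genes, of which 1 (Cd79a, the gene also called mb1 that carries Cre in mb1-cre mice) met the adjusted threshold, with sums of 66.0 to 795.0 TPM in IL-10 B-WT and 5.21 to 74.5 TPM in the IL-10 B-KO lungs. Cd79a was listed at 0 in 3 and Pax5 in 1 of the 6 IL-10 B-KO lungs. The highest B cell sum, 795.0 TPM, was that of IL-10 B-WT replicate 2, the lung with the highest Arntl and Npas2. Endothelial markers had a negative log2 fold change for 9 of 9 genes (1 at an unadjusted p of at most 0.05, sums of 2432.3 to 6016.2 TPM and 2385.9 to 5255.3 TPM). Their sums were 2385.9 to 3473.3 TPM in the 5 lungs with 15.2 to 21.9 TPM of Nr1d1 and 3061.0 to 6016.2 TPM in the other 7. After subtraction of the genotype means, the r of the 9 endothelial markers with the difference between the 2 sides of the loop lay between -0.82 (Tie1) and -0.39 (Cdh5) over 12 lungs, farther from 0 for most genes than the 0.39 to 0.56 of the 7 neutrophil markers, as a description. Scgb1a1, the club cell marker, had a mean of 50966 ± 27064 TPM for IL-10 B-WT and of 29223 ± 31659 TPM for IL-10 B-KO (SD, n = 6), with a log2 fold change of -1.12 (SE 0.56, limma adjusted p = 0.434) and an r of -0.67 with that difference. The sums of the 7 epithelial genes of the lung, Scgb1a1 among them, were 22349 to 38665 TPM in the 5 lungs with little Nr1d1 and 29706 to 111723 TPM in the other 7. Scgb1a1 had the highest mean of these genes in both genotypes and weighs most in the sums. Of the 7, 5 had a positive log2 fold change, among them Sftpa1 (1.09, limma adjusted p = 0.342) and Sftpb (0.74, adjusted p = 0.378), and 2 a negative one. Apart from Scgb1a1, their r with the difference between the 2 sides of the loop lay between -0.36 (Nkx2-1) and 0.20 (Sftpa1). Markers of pericytes and smooth muscle had a negative log2 fold change for 9 of 9 genes (5 at an unadjusted p of at most 0.05, 2 of them past the adjusted threshold, sums of 269.4 to 990.6 TPM and 110.7 to 522.2 TPM). Their r with the difference between the 2 sides of the loop lay on both sides of 0, from -0.22 (Notch3) to 0.79 (Kcnj8). Fibroblast markers were mixed in log2 fold change, with 3 positive and 4 negative of 7 (1 lower, Tcf21, with an unadjusted p no higher than 0.05). The r of Tcf21 with the difference between the 2 sides of the loop was -0.27. For the other fibroblast markers it lay between 0.56 and 0.72, for most farther from 0 than for the neutrophil markers. For macrophage and monocyte, B cell and T cell markers it lay between -0.09 and 0.62. Of 5 T cell markers, 0 had an unadjusted p no higher than 0.05. The part of these cells in the levels of the clock genes was likewise not tested.

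**Figure D5:**
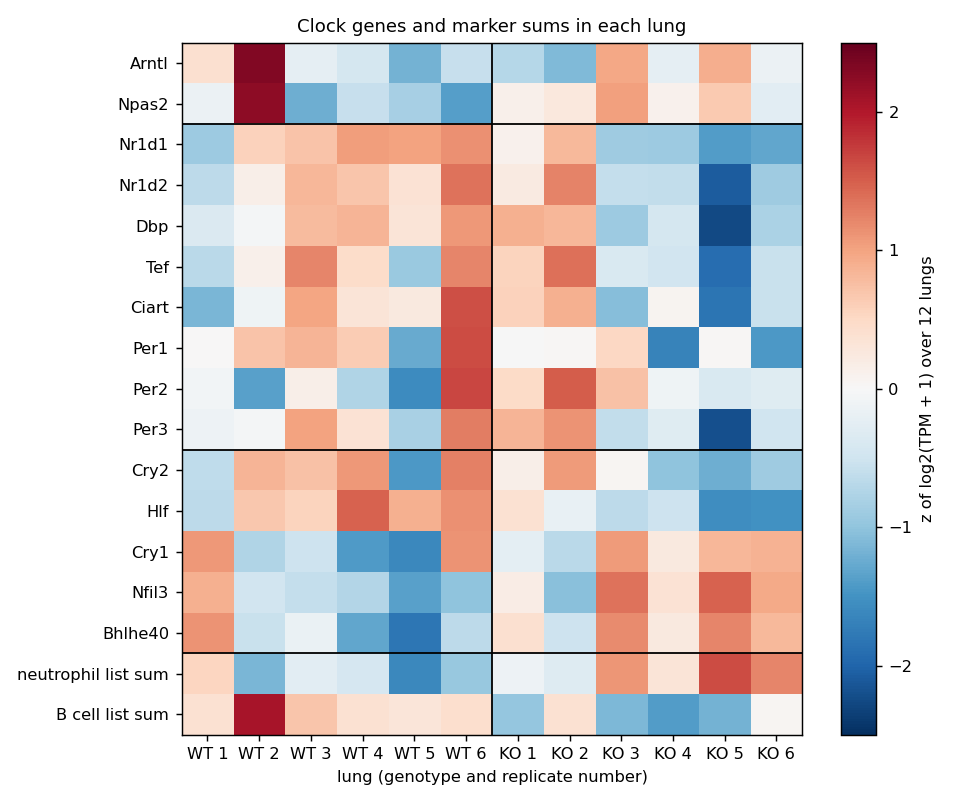
Z scores of log2(TPM + 1) over the 12 lungs (columns, by genotype and replicate number) for the 10 clock genes, 5 other genes of the core loop and the summed neutrophil and B cell markers (rows). The lungs with low Nr1d1 and Dbp, replicate 1 of IL-10 B-WT and replicates 3 to 6 of IL-10 B-KO, are those with high Nfil3 (14.0 to 36.3 TPM) and a neutrophil sum of at least 2012.2 TPM.

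The genes whose levels followed the difference between the 2 sides of the loop most closely were found over 12 lungs, after subtraction of the genotype means, among 13667 genes with a mean of at least 2 TPM that were not themselves clock genes of the set. The highest r were those of Sf3a2 (0.94), a gene of the splicing machinery, Ceacam10 (0.92), the B cell chemokine gene Cxcl13 (0.91), Tram2 (0.88) and the proline synthesis gene Pycr1 (0.88). Among the lowest were those of Gm36028 (-0.91), Rapgef3 (-0.90), Fam110a (-0.90) and A330009N23Rik (-0.89). None of those named was a gene of the clock lists. Ranks among so many genes over 12 lungs are a description.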

How the data were processed

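RNA was measured by RNA-Seq in 12 lungs, 6 per genotype. The authors deposited TPM per gene, calculated with RSEM in 1 column per library without pooling. Their processing notes also name fastp, HISAT and GRCm38.p5. The annotation release is not given in the sources used here. TPM keep no depth, so no count model, counting interval or detection limit could be given, and the precision rests on the spread between lungs. Each column was assigned by its name, none (0) went unused, and no pair of libraries was identical.

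Here, limma 3.58.1 (R 4.3.3; lmFit, eBayes with a trend) was run on log2(TPM + 1) with a term for genotype alone, over the 15148 genes that reached 1 TPM in 6 or more libraries, and p-values were adjusted over all of them by Benjamini-Hochberg. A gene was called when its adjusted p was 0.05 or lower and its log2 fold change 1 or more in either direction. Single genes were also compared by two-sided exact permutation tests. Relations between genes used 100000 permutations within genotype over 12 lungs and exact permutations over 6. The code was tested on simulated data. Exons came from GENCODE M21 (GRCm38). Permutations, promoter searches and plots were made in Python 3.11.15 with SciPy 1.17.1, pandas 2.3.3, NumPy 2.4.6 and matplotlib 3.10.9. The clock genes, the 15 gene lists and the tests were chosen with earlier results of these data known. The genes named were the 10 clock genes, genes of a list with an unadjusted p of 0.05 or lower where that list is described, and the 5 genes with the highest and 5 with the lowest r to the difference between the 2 sides of the loop. Other genes of the lists (among them Clock, Cry1, Cry2, Rora, Bhlhe41, Timeless, Nampt, Dusp1, Errfi1, Tsc22d3 and Klf9) are named outside this rule, after their values were seen. A few genes that fall under the rule or the lists are not reported here by name.

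Tried as alternatives were array quality weights, a block for replicate number, each lung left out, median centring, quantile normalization, rescaling without immunoglobulin genes, a smaller pseudocount (0.1), a stricter filter (mean of 5 TPM or more) and none. Rescaling without mitochondrial genes and leaving out IL-10 B-WT replicates 1 and 5 together were added after the data were seen.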

Additional observations from a re-analysis of the deposited data

Results flagged for a closer look

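In IL-10 B-WT replicate 2, Arntl was at 12.3 TPM, which stood apart from the other 5 lungs of its group by 0.670 of the group's whole range, above the 95% critical value of Dixon's test for 6 samples. In the same lung Npas2 was at 2.70 TPM and stood apart by 0.752 of the range. These were 2 of 26 groups examined, and chance flags about 1 in 20.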

How the results depend on the processing

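The log2 fold changes of the 10 clock genes kept their sign in 216 of 219 values under the alternatives. Sizes moved by over 1.5 times with single lungs for the clock genes other than Nr1d1 and Per1, as given with each gene. The exceptions in sign were those of Arntl (-0.15 to 0.15 with 1 lung left out), without IL-10 B-WT replicate 2 (0.15), IL-10 B-KO replicate 1 (0.01) and IL-10 B-KO replicate 2 (0.05). The r of Arntl with Per1 changed sign without mitochondrial genes (-0.01), with quantile normalization (-0.23) and with median centring (-0.20). Median centring moved the median log2 fold change of all genes from 0.10 to -0.01. The cause of these changes was not tested.

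Over all genes, the 75 calls became 318 with array quality weights, 160 without IL-10 B-WT replicates 1 and 5, 36 with median centring, 39 with quantile normalization, 28 without immunoglobulin genes and 6 with no filter (31629 genes tested), and lay between 19 (without IL-10 B-KO replicate 1 or 5) and 604 (without IL-10 B-WT replicate 1) with 1 lung left out. The clock genes called, 0, became 1 (Nr1d1) with array quality weights and lay between 0 and 1 with 1 lung left out, as did the other clock genes called. The clock genes at an unadjusted p of at most 0.05, 1, became 5 with array quality weights and 3 without IL-10 B-WT replicates 1 and 5. They were 2 with median centring, with quantile normalization and without mitochondrial genes, and lay between 1 and 3 with 1 lung left out. The share of all genes at that level was not taken under these alternatives, so that these counts are no result about the clock genes. Relations to Arntl past the adjusted threshold, 2, became 1 without immunoglobulin genes, 5 without mitochondrial genes and 4 with quantile normalization, and lay between 0 and 6 with 1 lung left out. For the difference between the 2 sides of the loop, the gap between the genotype means (0.87, IL-10 B-KO minus IL-10 B-WT) lay between 0.49 and 1.41 with 1 lung left out. Under the other alternatives it lay between 0.64 and 1.04.

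No pairing of the lungs by replicate number is given in the labels. Correlations of deviations between lungs of the same number lay between -0.29 and 0.05, which cannot settle whether these mice were handled together. With the replicate block, 45 genes were called, the clock genes among them 0. Depth is unknown, and genes near the filter such as Npas2, which a mean TPM of at least 5 removed, are the least precise.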
